A study of Drosophila melanogaster with 6 samples.

Results

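The contractile and sarcomere genes are the genes for the filaments, the Z-discs and the calcium apparatus of muscle. They were 33 genes chosen by symbol, current or older, and arranged as 14 thin filament, 9 thick filament, 8 Z-disc and 2 calcium handling genes. Of the 33, 27 had a probe set named for them alone among 11982 such genes on the array, and a gene with several was read from the one of highest mean over all arrays. Mhc, Tm1, wupA, Act57B, TpnC25D and TpnC47D were not analysed here. The RNA came from whole Drosophila melanogaster embryos of 6 to 8 h, grown and aged at 25 °C, and was hybridised to Affymetrix Drosophila Genome 2.0 arrays. The groups were the Insensitive mutant insv[23B] and the wild-type strain w[1118], with 3 arrays each, and the question was how transcripts differ when insv, a gene for a nuclear BEN-domain repressor, is mutated. The labels do not describe the lesion of the 23B allele. Muscle precursors are only some of the cells of such an embryo, so more muscle cells and more RNA per muscle cell cannot be told apart.

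Muscle contracts when myosin of the thick filaments pulls on actin of the thin filaments, within units called sarcomeres that are joined end to end at Z-discs. Calcium released through the ryanodine receptor binds troponin C, which lets tropomyosin move and opens the actin sites for myosin, and the SERCA pump then returns the calcium to its store. In the fly embryo, body wall muscles form by fusion of myoblasts, and the genes for their contractile proteins are switched on as these fibres differentiate, largely under the transcription factor Mef2.

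The values are log2 levels with a floor of 2.2, given to 1 decimal. A level of 4 was reached by 7821 to 7883 probe sets per wild-type array and by 8295 to 8312 per mutant array. For insv the level was 10.9 on all wild-type arrays and 4, 3.6 and 4.2 on the mutant arrays, so the labels matched the level of the mutated gene. The 23 detected control probe sets for Bacillus RNAs, which are spike-ins and not fly transcripts, were lower on every mutant array than on every wild-type array, by a median of -1.43 (log2). The labels name no batch, so how the arrays were handled cannot be told apart from the genotype. Scaling the arrays to these spike-ins moved the median log2 difference of all tested probe sets from -0.10 to 1.29, and the members' differences rose with it.

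Contractile and sarcomere genes were higher in the mutant in all 4 groups, with examples from the thin filament (Mp20, 16.4-fold), the thick filament (Mf, 18.0-fold), the Z-disc (Zasp66, 29.9-fold) and calcium handling (SERCA, 1.87-fold). Of the 27 measured members, 20 read 4 or more on all wild-type arrays, and 20 of these 20 passed the test as higher (limma, adjusted p under 0.05). Their median log2 difference, mutant minus wild type, was 2.65, and 15 rose at least 2-fold. For all 6397 genes held to that condition, 19.0% were called higher, 7.11% at least 2-fold, and the median was -0.17. With no filter, 21 of the 27 measured members were called higher and 0 lower, against 14.9% of 11982 genes called higher.

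The test itself was run on genes that reached a level of 4 on at least 3 arrays, whatever the genotype. It took in 22 members, since tn and Unc-89, which lay under 4 in wild type, entered only through the mutant and so had to differ. All 22 were called higher and 0 lower (also 0 at an unadjusted p under 0.05), where 24.9% of the 6932 tested genes were called higher and 41.7% lower. A rise of at least 2-fold was called for 17, against 13.3% of tested genes, and one of at least 8-fold was measured in 10, against 4.18%. The lowest mutant array lay above the highest wild-type array in each of the 22, which was so for 25.2% of tested genes. The median difference was 2.72 over these members and -0.13 over all tested genes.

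**Figure D1:**
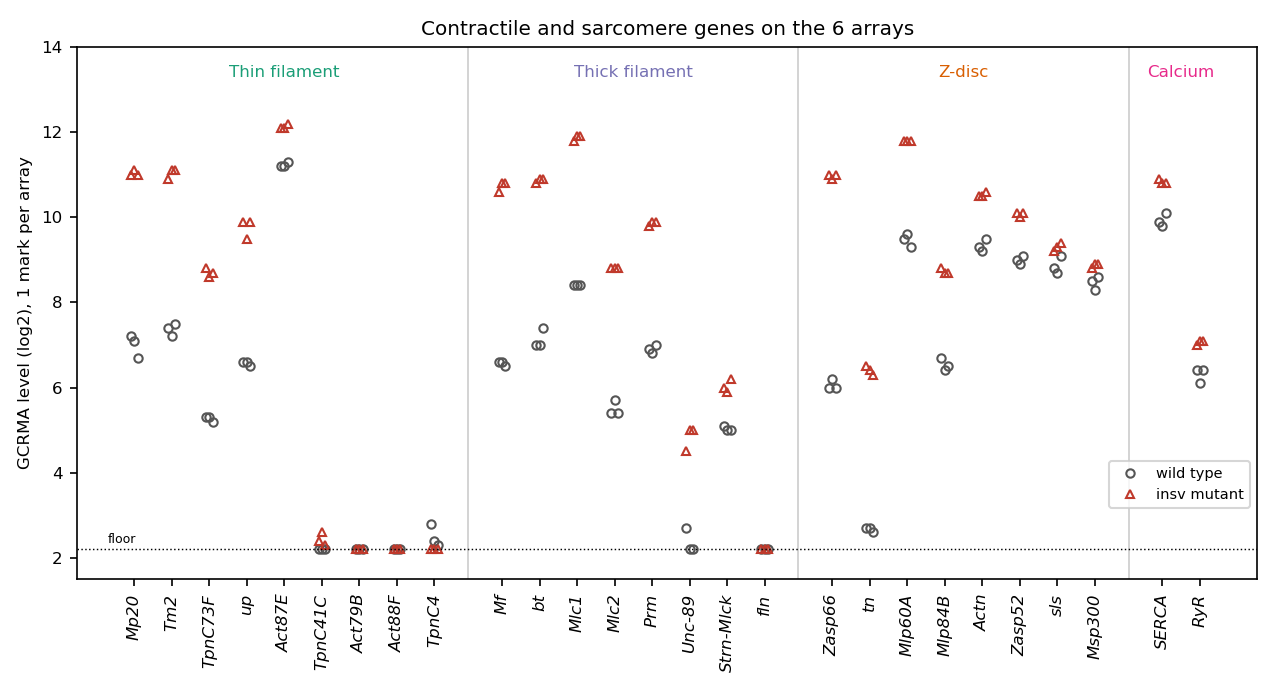
Log2 level of each of the 27 measured contractile and sarcomere genes on each array, with circles for the 3 wild-type and triangles for the 3 mutant arrays, arranged by place in the sarcomere. The triangles lie above the circles in all 22 tested genes, while Act79B, Act88F and fln sit on the floor of 2.2 on all 6 arrays.

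Of the 9 measured thin filament genes, 5 were tested and all 5 rose (median log2 difference 3.43), including 4 by at least 2-fold. Mp20, which encodes a calponin-like protein of synchronous muscles, read 11, 11.1 and 11 on the mutant arrays and 7.2, 7.1 and 6.7 on the wild-type arrays. Its difference of 4.03 ± 0.14 (SE, adjusted p = 1.28e-05) was 16.4-fold, the largest of the thin filament group. Tm2, one of the fly's tropomyosin genes, read 10.9, 11.1 and 11.1 in the mutant and 7.4, 7.2 and 7.5 in wild type. Those values gave a difference of 3.67 ± 0.10 (adjusted p = 5.79e-06). In both genes all mutant arrays lay far above all wild-type arrays.

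The troponin complex, the calcium switch of the thin filament, was represented by its T and C subunits. The troponin T gene up read 9.9, 9.5 and 9.9 in the mutant and 6.6, 6.6 and 6.5 in wild type, a difference of 3.20 ± 0.12 (9.19-fold). TpnC73F, a troponin C gene of larval and many adult muscles, read 8.8, 8.6 and 8.7 in the mutant and 5.3, 5.3 and 5.2 in wild type, a difference of 3.43 ± 0.06 (10.8-fold). These changes are near each other in size, and both subunits were far above the spread of their arrays. TpnC73F had another probe set at 2.2 on all arrays, and the mean of both gave a smaller difference of 1.72, still called.

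Act87E, an actin gene of larval and adult muscle, had the smallest difference of the tested thin filament genes. It read 12.1, 12.1 and 12.2 in the mutant and 11.2, 11.2 and 11.3 in wild type (difference 0.90 ± 0.05, 1.87-fold, adjusted p = 5.52e-05). Its probe set carries the suffix that the array's maker gives to probes matching more than 1 transcript, and fly actin genes are nearly identical, so the signal cannot be assigned to Act87E alone. The probe sets read for Tm2, Mlp84B, tn and SERCA carry the same suffix, and what else they match was not examined. Act79B and Act88F, actin genes known from adult muscles, lay at 2.2 on all 6 arrays. TpnC41C and TpnC4, troponin C genes known mainly from the adult jump and flight muscles, stayed near the floor and were not tested. TpnC41C read 2.4, 2.6 and 2.3 in the mutant and 2.2 on all wild-type arrays, while TpnC4 read 2.2 on all mutant arrays and 2.8, 2.4 and 2.3 in wild type. Neither was called when the filter was dropped.

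Thick filament genes rose in all 7 tested cases of 8 measured, each at least 2-fold (median log2 difference 3.30). Without Unc-89, which entered the test only through the mutant, these were 6 of 6 with a median of 3.38. Both myosin light chains were among them. Mlc1, the essential-type (alkali) light chain of muscle myosin, read 11.8, 11.9 and 11.9 in the mutant and 8.4 on all wild-type arrays (difference 3.47 ± 0.04, 11.1-fold). Mlc2, the regulatory light chain, read 8.8 on all mutant arrays and 5.4, 5.7 and 5.4 in wild type (difference 3.30 ± 0.09, 9.85-fold, adjusted p = 5.96e-06). The mutant arrays of both light chains lay far above the wild-type arrays.

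Genes for the core and the linking proteins of the thick filament rose as well. Mf, which encodes myofilin, a thick filament protein, read 10.6, 10.8 and 10.8 in the mutant and 6.6, 6.6 and 6.5 in wild type. Its 4.17 ± 0.07 (adjusted p = 1.37e-06), or 18.0-fold, was the largest difference of a thick filament gene. The gene bt encodes projectin, a giant titin-like kinase that links thick filaments to the Z-disc, and it read 10.8, 10.9 and 10.9 in the mutant and 7, 7 and 7.4 in wild type (3.73 ± 0.12, 13.3-fold). Prm, the gene for paramyosin, which forms the core of invertebrate thick filaments, read 9.8, 9.9 and 9.9 in the mutant against 6.9, 6.8 and 7 (2.97 ± 0.06, 7.82-fold). No wild-type array of these genes came within 2 log2 units of a mutant array.

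Unc-89 and Strn-Mlck, which encode titin-like kinases, had the smallest fitted differences of the thick filament group. Unc-89, named Obsc in the annotation, encodes the M-line protein obscurin, and read 4.5, 5 and 5 in the mutant and 2.7, 2.2 and 2.2 in wild type. With the wild-type arrays at or beside the floor, its fitted difference of 2.47 may understate the change. Strn-Mlck, a titin-like myosin light chain kinase gene, read 6, 5.9 and 6.2 in the mutant and 5.1, 5 and 5 in wild type, a difference of 1.0 ± 0.09 (adjusted p = 0.000356) that lies exactly at 2-fold and was 0.50 after quantile normalization. Its other 2 probe sets were at the floor on all arrays. The gene fln, for flightin of the flight muscle thick filament, lay at 2.2 on all 6 arrays.

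**Figure D2:**
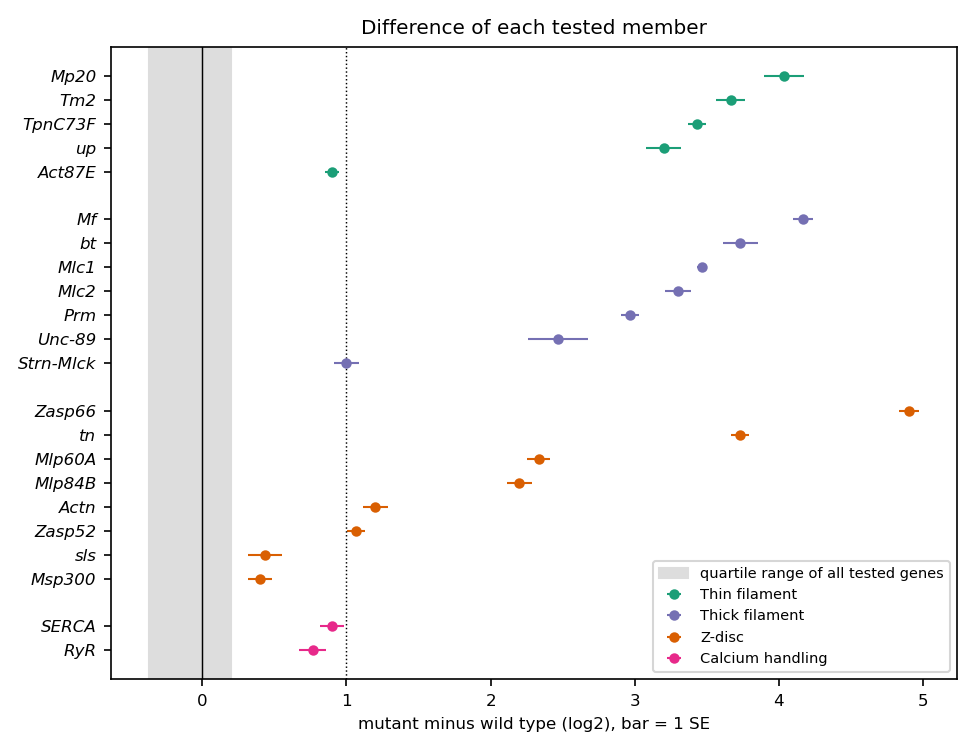
Mutant minus wild type (log2) of the 22 tested members with 1 SE from limma, coloured by place in the sarcomere, beside the quartile range of all tested genes in grey and a dotted line at 2-fold. Thin and thick filament genes other than Act87E, Unc-89 and Strn-Mlck lie between 2.97 and 4.17, while Z-disc genes spread from 0.40 to 4.90 and both calcium handling genes lie under 2-fold.

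Z-disc genes ranged from the largest difference of all members to the smallest. All 8 were tested and rose (median 1.70), including 6 by at least 2-fold. Without tn, which entered only through the mutant, 7 of 7 were higher and the median was 1.20. Zasp66, a PDZ-domain protein of the Z-disc, read 11, 10.9 and 11 in the mutant and 6, 6.2 and 6 in wild type. This difference of 4.90 ± 0.07 (29.9-fold, adjusted p = 9.44e-07) ranked 13 among 6932 genes. The mean of its 3 probe sets, of which 1 was too dim to be tested, gave 3.34. The related gene Zasp52 read 10.1, 10 and 10.1 in the mutant and 9, 8.9 and 9.1 in wild type, a difference of only 1.07 ± 0.06 (2.09-fold, adjusted p = 8.59e-05). The difference between these paralogs was not tested.

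The gene tn, thin, encodes a TRIM-NHL protein that keeps the larval Z-disc intact, and was almost absent from wild type. It read 6.5, 6.4 and 6.3 in the mutant and 2.7, 2.7 and 2.6 in wild type (difference 3.73). The muscle LIM proteins lay in between. Mlp60A read 11.8 on all mutant arrays and 9.5, 9.6 and 9.3 in wild type (2.33 ± 0.08, 5.04-fold), and the mean with its other 2 probe sets, both at the floor, gave 0.78. Mlp84B read 8.8, 8.7 and 8.7 in the mutant and 6.7, 6.4 and 6.5 in wild type (2.2 ± 0.09, 4.59-fold). Both LIM genes were higher on all 3 mutant arrays by at least 2 log2 units.

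The remaining Z-disc genes had smaller differences. Actn encodes alpha-actinin, which cross-links actin at the Z-disc and in other cells, and read 10.5, 10.5 and 10.6 in the mutant against 9.3, 9.2 and 9.5 (1.20 ± 0.09, 2.30-fold). The gene sls, for the titin-like protein that spans from the Z-disc, read 9.2, 9.3 and 9.4 in the mutant and 8.8, 8.7 and 9.1 in wild type. Its 0.43 ± 0.12 passed narrowly (adjusted p = 0.0236) and missed the threshold when mutant replicate 2, mutant replicate 3, wild-type replicate 1 or wild-type replicate 2 was left out (adjusted p = 0.0689 to 0.0833), after median centring (0.0768) and with no filter (0.0848). Msp300, a giant nesprin that anchors nuclei and reaches the Z-disc, read 8.8, 8.9 and 8.9 in the mutant and 8.5, 8.3 and 8.6 in wild type (0.40 ± 0.09, adjusted p = 0.0105).

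The calcium handling genes rose by less than 2-fold. SERCA, the pump that refills the calcium store, read 10.9, 10.8 and 10.8 in the mutant and 9.9, 9.8 and 10.1 in wild type (0.90 ± 0.09, 1.87-fold, adjusted p = 0.000534). RyR, the ryanodine receptor that releases it, read 7, 7.1 and 7.1 in the mutant and 6.4, 6.1 and 6.4 in wild type (0.77 ± 0.10, 1.70-fold, adjusted p = 0.00143). Both lie close to the size of the Act87E difference, and neither overlapped between genotypes.

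Several members had more than 1 tested probe set, and these did not always read the same change. The tested pairs read 4.17 and 4.17 for Mf, 4.90 and 4.63 for Zasp66, and 2.97 and 3.63 for Prm. For SERCA, 2 probe sets were higher (0.90 and 1.07) while another read 8.6, 8.5 and 8.3 in the mutant and 8.1, 8 and 8.4 in wild type and was not called (0.30, adjusted p = 0.0999). A probe set for sls read 8.2 on all mutant arrays and 8.2, 7.8 and 8.3 in wild type (0.10, adjusted p = 0.543), beside the called one at 0.43. In Msp300 a dim probe set read 4.3, 4.1 and 4.1 in the mutant and 2.6, 2.9 and 2.7 in wild type (difference 1.43, beside 0.40 for the bright one). It passed the filter only through the mutant and had to differ, so its test says nothing further. Which transcripts each probe set detects was not examined here, and differences between probe sets were not tested.

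**Figure D3:**
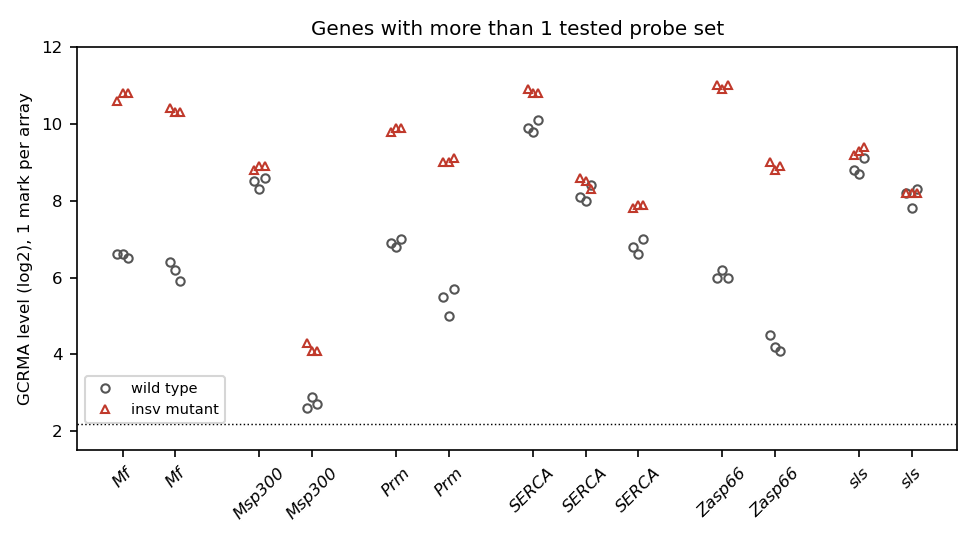
Log2 level on each array for the 6 members with more than 1 tested probe set, 1 column per probe set, with circles for wild type and triangles for mutant. The genotypes are apart in both probe sets of Mf, Prm and Zasp66, while 1 probe set each of SERCA and sls overlaps.

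The size of the change varied with the signal in wild type. Among the 20 members at 4 or more on all wild-type arrays, 12 read under 8 in wild type, of which 11 were at least 2-fold higher, with a median difference of 3.37. The exception was RyR. The other 8 read 8 or more in wild type, and 4 of them were at least 2-fold higher, namely Mlc1, Mlp60A, Actn and Zasp52, with a median of 0.98. All genes at 4 or more on all wild-type arrays, split alike, rose at least 2-fold in 17.7% of 2256 cases under 8 and in 1.33% of 4141 cases at 8 or more. Across the 20 members, Pearson's r between the wild-type level and the difference was -0.50 and Spearman's correlation -0.38, as a description only, since the wild-type level is part of the difference and a probe set's signal also depends on its probes. Over all 22 tested members the levels ran from 4.83 to 12.13 in the mutant and from 2.37 to 11.23 in wild type.

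**Figure D4:**
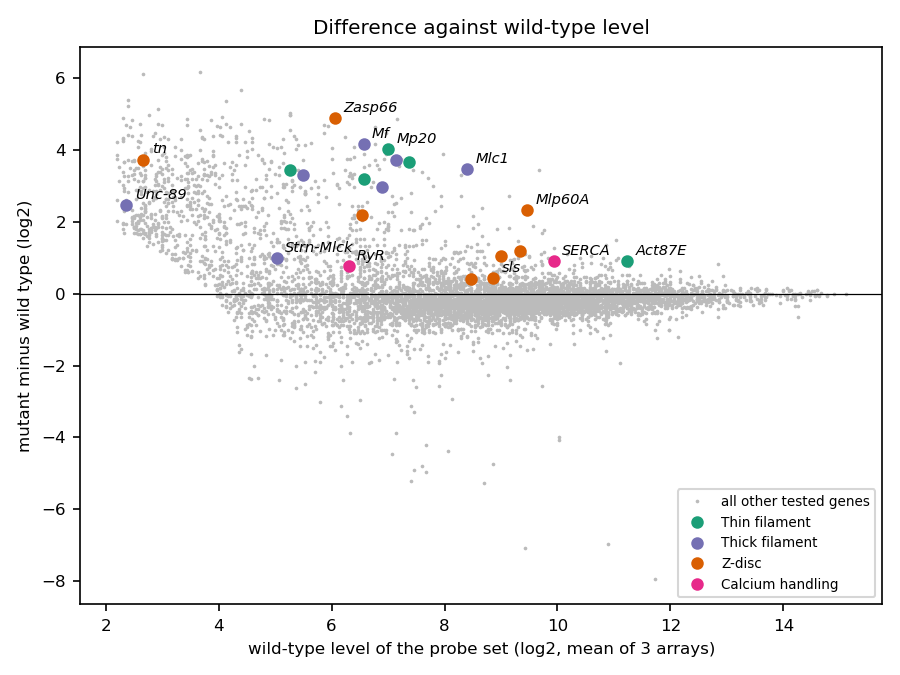
Mutant minus wild type (log2) against the mean wild-type level of the probe set (log2), with the 22 tested members in colour and all other tested genes in grey. The members lie above 0 at every level, and Mlc1 and Mlp60A stand out at wild-type levels of 8 or more, where 1.33% of all tested genes rose at least 2-fold.

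Of 11 tested genes that assemble and maintain the sarcomere, 5 were higher and 0 lower on the deposited scale (0 also at an unadjusted p under 0.05), with a median of 0.20, where 24.9% of all tested genes were called higher. Median centring gave 4 higher and 2 lower. Scaling to the spike-ins gave 11 higher (median 1.59), where the median of all tested probe sets was 1.29. CryAB, now named l(2)efl, encodes a small heat-shock protein of muscle and differed by 3.13 ± 0.06 (adjusted p = 2.33e-06). The gene stv, for the BAG-domain cochaperone starvin, read 6.5, 6.4 and 6.5 in the mutant and 3.2, 3.4 and 3.8 in wild type, and without it 4 of 10 were higher, since it passed the filter only through the mutant. Lmpt, a LIM-domain gene, had 1.97 ± 0.06, and CAP, an adaptor that binds vinculin, had 1.60 ± 0.09. Among genes of muscle calcium entry and excitation, 4 of 13 measured were tested, of which 2 were higher and 1 lower (median 0.80). Of the 3 at 4 or more on all wild-type arrays, 1 was higher and 1 lower, with a median of 0.03. The brightest, Stac, was not called (0.03). Ca-alpha1D, the L-type calcium channel subunit, was higher (1.57 ± 0.22, adjusted p = 0.0024). The sodium-calcium exchanger gene Calx read 4.5, 4.6 and 4.8 in the mutant and 3.2, 2.9 and 2.9 in wild type, and it too entered the test only through the mutant. Itpr, the inositol trisphosphate receptor, read -0.30 ± 0.10 (adjusted p = 0.0499), a call lost under 8 of the alternatives and turned to 1.09 on the spike-in scale.

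Regulators of muscle fate were not called higher on the deposited scale. Of 10 tested muscle regulators, 0 were higher (0 also at an unadjusted p under 0.05) and 6 lower, with a median of -0.37. Over all tested genes 41.7% were called lower and the median was -0.13. Mef2, tin, sd, how and aret were not analysed here. The lower ones included nau, the fly MyoD homologue (-0.40 ± 0.05, adjusted p = 0.00111), the identity gene slou (-0.77 ± 0.12, adjusted p = 0.0032), twi, which specifies mesoderm (-0.37 ± 0.06), and vg (-0.70 ± 0.13). On the spike-in scale 9 of the 10 were called higher (median 1.02), where the median of all tested probe sets was itself 1.29. After quantile normalization 9 were lower (median -0.39, against -0.11 for all tested probe sets). Median centring gave 7 lower (median -0.50, against -0.23). Genes of myoblast fusion showed 2 higher, 2 lower and 5 not called of 9, with a median of 0, where 24.9% of all tested genes were called higher and 41.7% lower. The fall of sns, the adhesion receptor of fusion-competent myoblasts, stood apart at -3.87 ± 0.18 (adjusted p = 3.78e-05) and was lower under every scaling tried. The others were small, with hbs at 0.33, blow at 0.37 and Ced-12 at -0.37, the last of which turned to 1.02 on the spike-in scale.

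Muscle attachment genes were called higher in 10 of 17 cases and lower in 1 on the deposited scale, with a median of 0.23, where 24.9% of all tested genes were called higher, but median centring left 5 higher and 3 lower. Tig, the integrin ligand tiggrin (1.83 ± 0.06, adjusted p = 1.26e-05), and Vinc, vinculin (1.37 ± 0.10, adjusted p = 0.000165), were at least 2-fold higher. LanB2, a laminin chain, had 0.50 ± 0.06 and the integrin-linked kinase gene Ilk 0.23 ± 0.04, a call that was lost after median centring (adjusted p = 0.124). Among the non-muscle actomyosin genes, Act5C, Act42A, zip, sqh, Arp2, Arp3 and Rho1 were not analysed here. The 6 tested were Mlc-c, chic, tsr, Rok, Mbs and dia. Of these 6, 0 were higher (0 also at an unadjusted p under 0.05) and 1 was lower, by less than 2-fold. Their median was -0.07. Median centring gave 4 of the 6 as lower. On the spike-in scale all 6 were called higher, with a median of 1.32. On that scale the median was 1.29 for all tested probe sets and 4.69 for thick filament genes.

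Many markers of other differentiating tissues were also higher on the same arrays, though of those tested elav, GATAe, srp and crq were not. These lists, like the members and the other muscle lists, were chosen with earlier results of these data known. Their shares beside those of all genes are therefore a description and not a test. Among all tested genes 24.9% were called higher and 41.7% lower. Of genes at 4 or more on all wild-type arrays, 19.0% were called higher. Of 8 tested epidermis and cuticle markers, Cpr56F (difference 3.67) and Ddc lay under 4 on all wild-type arrays and so entered the test only through the mutant. The other 6 were higher on the deposited scale, with a median of 1.82, among them TwdlM (3.90), Osi6 (2.73) and Gasp (1.83). After quantile normalization 7 of the 8 were higher and 1 lower. Their summed level was 10.2 to 10.3 in wild type and 12.8 to 12.9 in the mutant (log2 of the sum), with ple, the tyrosine hydroxylase gene, at the floor on all arrays. Of 5 tested neuronal markers 4 were higher, Gad1 (3.87), Rab3 (3.63), cpx (3.47) and nrv3 (3.37), or 2 of the 3 that read 4 or more on all wild-type arrays, cpx and nrv3. The summed level went from 12.1 to 12.3 in wild type to 12.5 to 12.6 in the mutant, while brp and nSyb stayed under 4 on all arrays and the pan-neuronal gene elav read -0.07. Midgut markers had 3 of 4 higher among those at 4 or more on all wild-type arrays, alphaTry at 4.40, Jon25Biii at 4.37 and Inx7 at 2.03. GATAe was not called (-0.03), and Mal-A3 (5.40) entered only through the mutant. The summed level of the midgut markers was 8.77 to 8.78 in wild type and 11.4 in the mutant. Among 6 tested hemocyte markers 4 were higher and 1 lower, with Glt at 4.30, vkg at 3.80, Col4a1 at 3.57 and Pxn at 0.83. The lower one was crq (-0.37), and srp was not called (0.10). The summed level of the hemocyte markers was 12.1 to 12.3 in wild type and 13.1 to 13.2 in the mutant, with Hml near the floor. For the thick filament list the summed level was 9.58 to 9.66 in wild type and 13.0 to 13.1 in the mutant. A summed level follows its brightest genes, elav for neurons and srp for hemocytes, so changes in these sums cannot be compared between lists. The part that embryo age or the makeup of tissues had in the contractile gene differences was not tested.

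**Figure D5:**
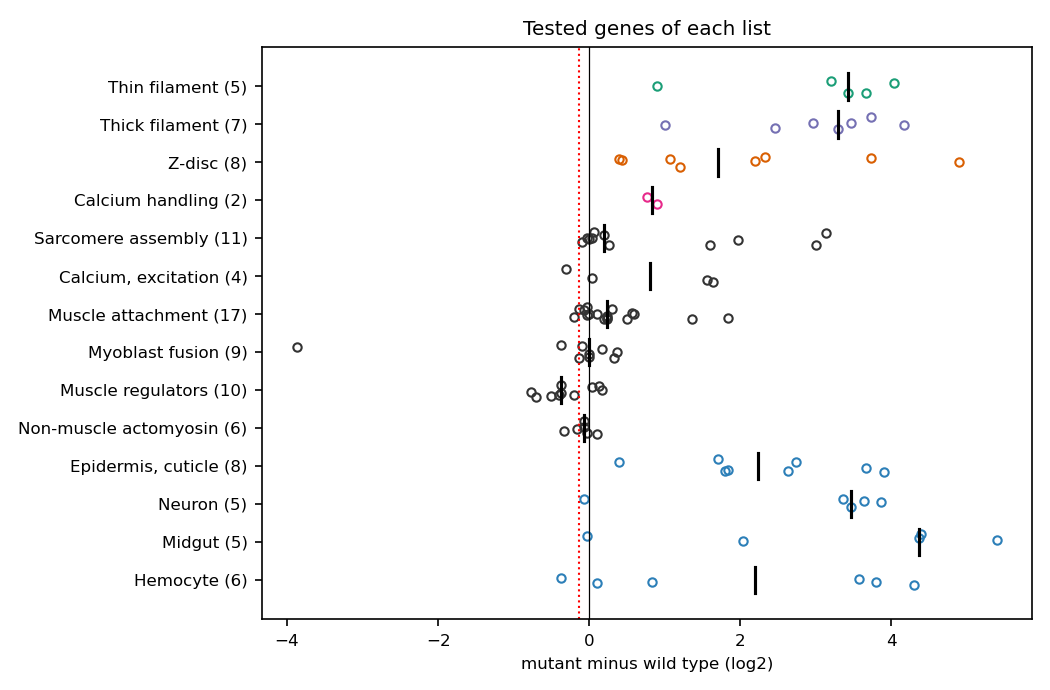
Mutant minus wild type (log2) of every tested gene in each list, 1 circle per gene, with the list's median as a black bar, the number tested in brackets and the median of all tested genes as a dotted red line at -0.13. The 4 sarcomere lists and the 4 lists of other tissues have medians from 0.83 to 4.37, while muscle regulators, myoblast fusion and non-muscle actomyosin genes have medians from -0.37 to 0. Between them lie sarcomere assembly (0.20), muscle attachment (0.23) and calcium and excitation (0.80). Genes under 4 on all wild-type arrays, such as stv, Calx, Cpr56F, Ddc and Mal-A3, are among the circles only through their mutant values.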

How the data were processed

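Total RNA of 6 embryo samples, 3 per genotype, was measured on 1 array each. The deposited values are log2 levels that the authors made with GCRMA, per the submitters' processing notes in an unstated version. Their range, 2.2 to 15.1, shows the log2 scale. Groups came from the sample titles, and the 3 samples of a genotype may be technical repeats, so p-values measure only the spread between them.

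Of 18952 probe sets, 183 controls were left out, and 13647 of the others had 1 gene symbol in the platform annotation, brought up to date with RefSeq gene names (assembly Release 6 plus ISO1 MT). Probe sets with several symbols named no gene. Probe sets at 4 or more on at least 3 arrays (8334) were fitted with limma 3.58.1 in R 4.3.3 (lmFit, eBayes) without a block, and p-values were Benjamini-Hochberg adjusted over all of them at 0.05. In 24.1% rounding left no spread in 1 genotype (limma's prior degrees of freedom were 1.18). The number of arrays limits the precision. Arrays with the same replicate number deviated together for numbers 1 (r = 0.17) and 3 (r = 0.27) but not 2 (r = -0.01). Mutant array 1 deviated more with wild-type array 2 (r = 0.20) than with wild-type array 1. Arrays of the same number were not treated as paired, though 3 arrays per genotype cannot settle whether they were.

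All 33 members were named, with up to 4 genes of smallest adjusted p from each of 10 other lists. The members and lists were chosen with earlier results of these data known. Alternatives were other filters, scalings, priors, a replicate block, left-out arrays and means of probe sets. Sequences were not analysed here.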

Additional observations from a re-analysis of the deposited data

How the results depend on the processing

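The count of contractile and sarcomere genes called higher was 22 on the deposited scale. It stayed between 19 and 22 under the 15 alternatives that recompute it, and 0 were called lower under any. The count was 20 with a filter at 6 and 19 when all probe sets of a gene were averaged, where fewer members passed the filter. Only sls crossed the threshold, as given above. The 17 members at 2-fold or more were counted on the deposited scale only. Strn-Mlck lay under 2-fold after quantile normalization (log2 difference 0.50) and after median centring (0.87), and Zasp52 after median centring (0.93). The members' median log2 difference was 2.58 to 3.20 under all alternatives but the spike-in scale, where it was 4.10. Leaving out 1 array in turn gave 21 to 22 members higher. With the replicate block, 22 members and 17 genes of the other muscle lists were higher and 10 lower, and no member's call changed. Only some same-numbered arrays deviated together, and 3 arrays per genotype are too few to settle whether the replicate numbers pair the samples. The genes of the other muscle lists were 19 higher and 11 lower of 57 tested. These counts were 8 and 1 at 2-fold or more, 55 and 1 on the spike-in scale, and 20 were lower after median centring, where every gene is lowered by the same constant. On the spike-in scale the median of all tested probe sets was itself 1.29. Without 1 array in turn 16 to 22 were higher and 9 to 13 lower. The floor of 2.2 limits the difference of Unc-89, and the planned search for promoter motifs was not run.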
